A study of Mus musculus with 8 samples.

Results

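The microRNAs described here are mmu-miR-193b-3p and its paralog mmu-miR-193a-3p, which share a seed, and mmu-miR-365-3p, whose genes lie beside theirs. They were taken by name from the miRNAs of the array, 3 of 1881, and all 3 were among the 285 miRNAs that could be tested. The 3 miRNAs were chosen by their measured change in Akita against control kidneys, so that comparison is given below as a description, with intervals and no p-values. Kidney miRNAs were measured in 4 samples of male Akita mice (C57BL/6-Ins2Akita/J) and in 4 samples of male C57BL/6J mice, called control here and Mock in the sample titles. The Akita allele is a dominant Ins2 mutation: its proinsulin misfolds in pancreatic beta cells, and the mice become diabetic. The labels give an age of 36 without a unit for all samples, and nothing in the labels says whether Mock stands for a treatment. No label says that each sample is a separate mouse, so errors and p-values measure only the spread between these samples.

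MicroRNAs are short RNAs that pair with messenger RNAs mainly through their seed, bases 2 to 8, and lower their translation or stability. The genes of miR-193b and miR-365 form a cluster known from mouse brown fat, where both miRNAs rise as preadipocytes become brown fat cells and hold down genes of the muscle programme. In transgenic mice, miR-193a made in excess represses the podocyte transcription factor Wt1 and causes focal segmental glomerulosclerosis, a scarring of the kidney's filters. A paralogous miR-193a and miR-365 pair lies on another chromosome, and mature miR-365-3p is the same from both.

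The mature sequences (RefSeq, GRCm38.p6) show why 2 of the miRNAs form a family and the other does not, with the seed in capitals.
miR-193b-3p: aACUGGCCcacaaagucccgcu
miR-193a-3p: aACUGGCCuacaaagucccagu
miR-365-3p: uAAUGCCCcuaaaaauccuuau
The miR-193 paralogs were identical at 19 of 22 bases and differed, going from miR-193a-3p to miR-193b-3p and counting from 1 at the 5′ end, by U9C, A20G and G21C, all outside the seed. Their seed ACUGGCC was held by no other miRNA among the 1608 of 1881 array miRNAs that matched the RefSeq table, and the seed of miR-365-3p, AAUGCCC, was held by no other one there.

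The 4 hairpins are shown because they define the paired arrangement of the genes, with the 3p arm in capitals.
Mir193b: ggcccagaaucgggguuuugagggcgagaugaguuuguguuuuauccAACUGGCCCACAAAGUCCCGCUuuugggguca
Mir365-1: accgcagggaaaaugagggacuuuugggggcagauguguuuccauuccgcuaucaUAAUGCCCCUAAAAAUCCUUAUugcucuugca
Mir193a: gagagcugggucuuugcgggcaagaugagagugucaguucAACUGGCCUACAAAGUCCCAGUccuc
Mir365-2: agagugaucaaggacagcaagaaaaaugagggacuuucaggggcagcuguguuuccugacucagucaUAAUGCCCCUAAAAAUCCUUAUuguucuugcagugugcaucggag
In GRCm38.p6, Mir193b lies at chr16:13449523-13449601 and Mir365-1 at chr16:13453840-13453926, both on the plus strand and 4238 bases apart. Both fall within the spans of the long non-coding RNA genes Gm32817 and Gm53058, between the coding genes Mrtfb and Parn. Mir193a lies at chr11:79711969-79712034 and Mir365-2 at chr11:79726400-79726511, also on the plus strand and 14365 bases apart, between the coding genes Rab11fip4 and Utp6 and within no other gene's span. Because the 22 bases of mature miR-365-3p are the same in both hairpins, its signal on the array cannot be assigned to chromosome 16 or 11. One other array miRNA, miR-6365, lay within 50 kb of a member gene by the RefSeq positions (on chromosome 16), and it was well above background on 0 of 8 arrays.

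Each of the 3 miRNAs was read by 2 probes of 15 spots each. The probes of the paralogs are shown because they set how well the array tells miR-193b-3p from miR-193a-3p, with capitals at the bases opposite the differences between the miRNAs.
miR-193b-3p, shorter probe: aGCgggactttgtGgg
miR-193b-3p, longer probe: aGCgggactttgtGggc
miR-193a-3p, shorter probe: aCTgggactttgtAgg
miR-193a-3p, longer probe: aCTgggactttgtAggc
The shorter probes cover bases 7 to 22 and the longer ones bases 6 to 22 of the miRNA, so every probe spans all differences and has 3 mismatches to the paralog. How far a probe also binds the paralog was not measured here. After the scaling given below, the linear signal over all arrays was 1214 to 1538 for miR-193a-3p and 59.2 to 121 for miR-193b-3p. Any such binding would thus weigh most on miR-193b-3p, and would enter the ratio and correlation of the paralogs. The miR-365-3p probes cover bases 2 to 22 and 1 to 22, and the array annotation places them on both chromosomes.

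A miRNA counts as well above background on an array where a share of at least 0.5 of its spots on some probe did so by the scanner software's flag. Levels below are log2 of the signal summed over a miRNA's probes after each array was scaled by its 75th percentile over 451 probes measured on all arrays, and a change is Akita minus control. That percentile was 369 to 446 intensity units on the Akita arrays and 495 to 520 on the control arrays, and 274 to 298 miRNAs were well above background on each Akita array, against 295 to 327 on each control array. All 8 arrays lay on 1 slide, with the Akita arrays in one row and the control arrays in the other, and an effect of the row cannot be told apart from one of the group. A limma fit over the 285 miRNAs called 42 at a Benjamini-Hochberg adjusted p under 0.05, 14.7% of those tested (24 or 8.42% higher and 18 or 6.32% lower in Akita). The split depended on the scaling, with 5 higher and 104 lower without scaling, 7 and 110 with spike-in scaling, 10 and 4 where the percentile was taken over all probes, 29 and 41 with cyclic loess, and 16 and 20 in the deposited value table. The count of 42 became 20, 22 and 22 without Akita replicate 1, 3 or 4, and 27 and 23 without control replicate 2 or 3. Without control replicate 4 the split was 13 higher and 27 lower. In whole kidney RNA, fewer cells of a type and less RNA per cell cannot be told apart.

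MiR-193b-3p was higher in Akita kidneys than in control kidneys, miR-365-3p was higher on average with overlapping groups, and miR-193a-3p differed by less than the SD within either group. Mmu-miR-193b-3p, known in mice as the brown fat partner of miR-365, had levels of 6.80, 6.71, 6.84 and 6.92 in Akita replicates 1 to 4, against 5.89, 6.18, 6.17 and 6.09 in control replicates 1 to 4. Every Akita array lay above every control array, and the means were 6.82 ± 0.09 in Akita kidneys and 6.08 ± 0.13 in control kidneys (SD, n = 4 each). The change was 0.74 on the log2 scale (SE 0.08, 95% interval 0.54 to 0.93), or 1.67-fold, and ranked 4 of 285 by size of the signed change. On the linear scale the scaled signal was 105 to 121 in Akita kidneys and 59.2 to 72.3 in control kidneys, above the floor of 23.65 set for the lowest values.

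Mmu-miR-365-3p, which has its own seed and is encoded at both loci, had levels of 10.04, 9.58, 9.81 and 9.88 in Akita replicates 1 to 4, against 9.26, 9.62, 9.63 and 9.58 in control replicates 1 to 4. Akita replicate 2 lay among the control arrays, while the other Akita arrays lay above all of them. The mean was 9.83 ± 0.19 in Akita kidneys and 9.52 ± 0.18 in control kidneys (SD, n = 4 each), a change of 0.30 (SE 0.12, 95% interval 0.04 to 0.57), or 1.24-fold, ranking 26 of 285. Control replicate 1 was the lowest of all 8 arrays, and without it the change was 0.22.

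Mmu-miR-193a-3p, the paralog tied to podocyte injury in mice, had levels of 10.59, 10.33, 10.48 and 10.50 in Akita replicates 1 to 4, against 10.25, 10.51, 10.41 and 10.35 in control replicates 1 to 4. The groups overlapped, with 1 Akita array below 3 of the control arrays. The mean was 10.48 ± 0.11 in Akita kidneys and 10.38 ± 0.11 in control kidneys (SD, n = 4 each), a change of 0.09 (SE 0.08, 95% interval -0.09 to 0.28), ranking 124 of 285. Among the 3 miRNAs 1 was called, higher in Akita, and the same 1 had groups that did not overlap. Over all 285 tested, 8.42% were called higher, 13.7% had all Akita arrays above all control arrays and 9.12% all below them, 22.8% in either direction. The median change of the 3 was 0.30, beside 0.06 over all tested miRNAs, and since the contrast chose the 3 miRNAs nothing is read from these shares.

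**Figure D1:**
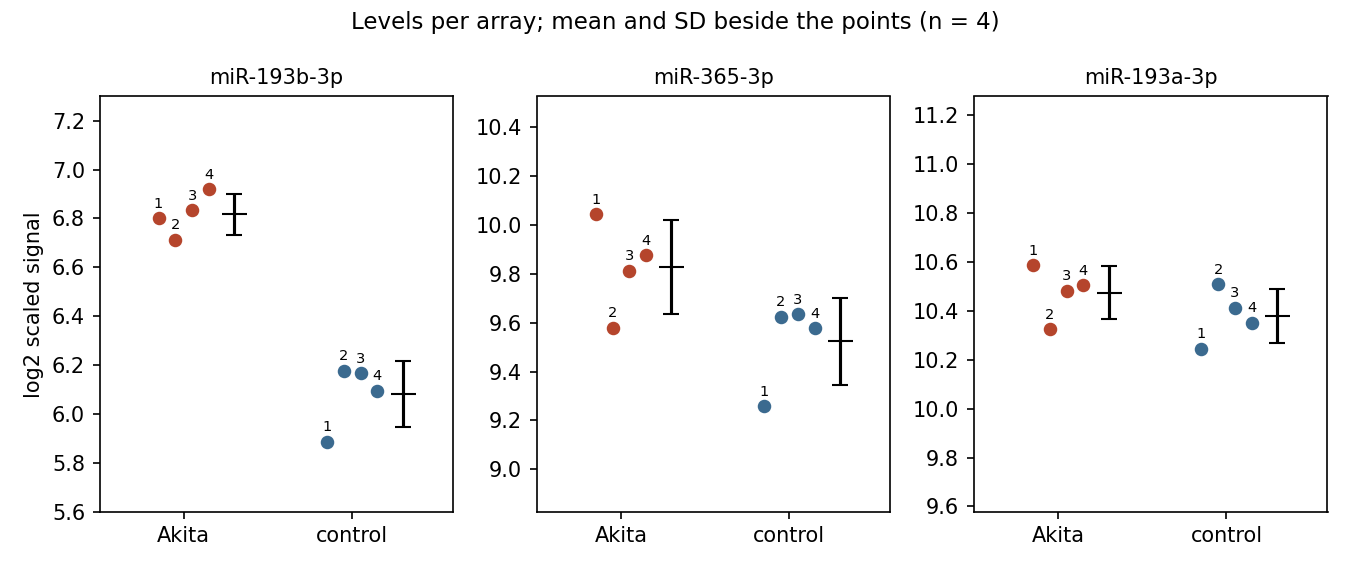
Log2 scaled signal of each miRNA on each array (numbers are replicates, vertical axes span the same width), with the Akita group left of the control group and the mean and SD beside the points (n = 4 each). The 4 Akita values of miR-193b-3p sit between 6.71 and 6.92, all above the control values of 5.89 to 6.18, while the groups overlap for the other miRNAs.

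The 2 probes of each miRNA gave like changes. For miR-193b-3p the change was 0.74 (SE 0.05) by the shorter probe and 0.73 (SE 0.10) by the longer one, and the groups did not overlap on either. For miR-365-3p the 2 probes gave 0.29 and 0.32, and for miR-193a-3p both gave 0.09. The probes of miR-193b-3p were less precise than the others, with a median coefficient of variation between spots of one array of 14.8% and 12.2%, beside 3.45% and 4.80% for miR-193a-3p and 3.22% and 4.39% for miR-365-3p.

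Before any scaling, the shorter miR-193b-3p probe read 39.3 to 46.2 intensity units on the Akita arrays and 28.5 to 33.1 on the control arrays, and the longer one 56.1 to 62.1 against 35.1 to 46.4. Its groups were thus apart in the unscaled signal too. The shorter miR-365-3p probe read 331 to 473 units unscaled on the Akita arrays and 306 to 403 on the control arrays. The shorter miR-193a-3p probe read 337 to 438 on the Akita arrays and 384 to 470 on the control arrays. Both of these overlapped, and the unscaled signal of miR-193a-3p was lower on average in Akita.

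**Figure D2:**
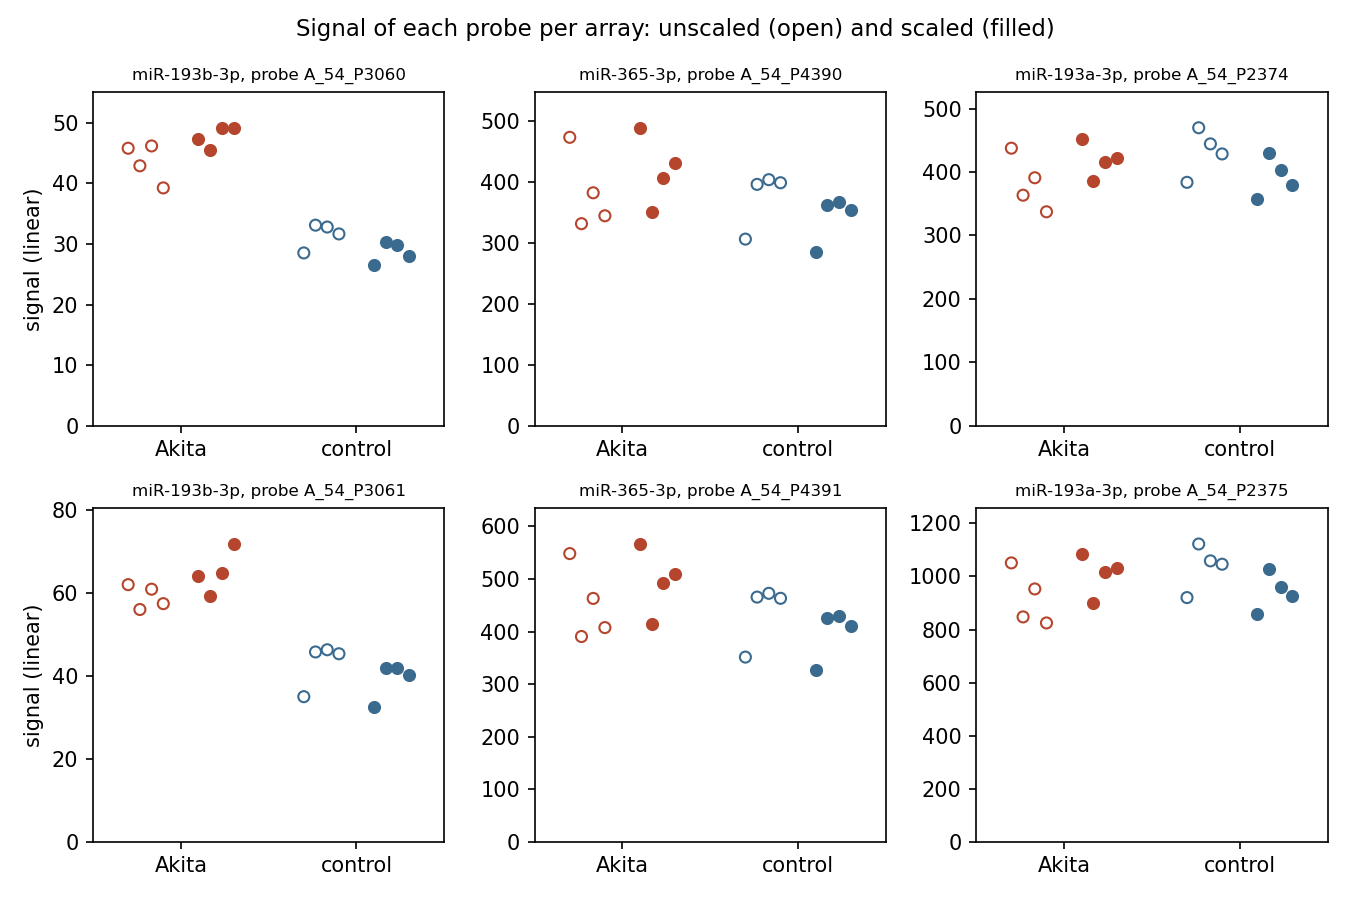
Signal of each probe on each array in linear intensity units, with Akita left of control, open points before scaling and filled points after it. Both probes of miR-193b-3p keep the groups apart in both forms (39.3 to 46.2 in Akita against 28.5 to 33.1 in control for the shorter probe before scaling), while those of miR-365-3p and miR-193a-3p overlap.

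Ratios of 2 miRNAs on the same array do not change where the array is divided by 1 factor. They show how unequally the 3 miRNAs differed. Set to a control mean of 0, the log2 ratio of miR-193b-3p over miR-193a-3p was 0.51, 0.69, 0.65 and 0.71 in Akita replicates 1 to 4, against -0.06, -0.03, 0.05 and 0.04 in control replicates 1 to 4. The paralogs were thus apart in every Akita array, by 0.64 on average (SE 0.05), a 1.56-fold shift of the ratio, although with normexp it was 0.34 and with the floor 4 times higher 0.16. The ratio of miR-193b-3p over its cluster neighbour miR-365-3p was 0.20, 0.58, 0.46 and 0.48 in Akita, against 0.07, -0.01, -0.03 and -0.04 in control. It differed by 0.43 (SE 0.08), or 1.35-fold, with no overlap, although Akita replicate 1 lay much nearer the control arrays than the other Akita arrays did. With normexp it differed by 0.15 and with the raised floor by -0.052, so background and floor bear on these ratios. Cyclic loess, which does not divide an array by 1 factor, gave 0.36 here and 0.57 for miR-193b-3p over miR-193a-3p. The ratio of miR-193a-3p over miR-365-3p was -0.31, -0.11, -0.19 and -0.23 in Akita, against 0.13, 0.03, -0.08 and -0.08 in control. Its difference was -0.21 (SE 0.07), and the groups did not overlap here either, by a narrow gap.

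**Figure D3:**
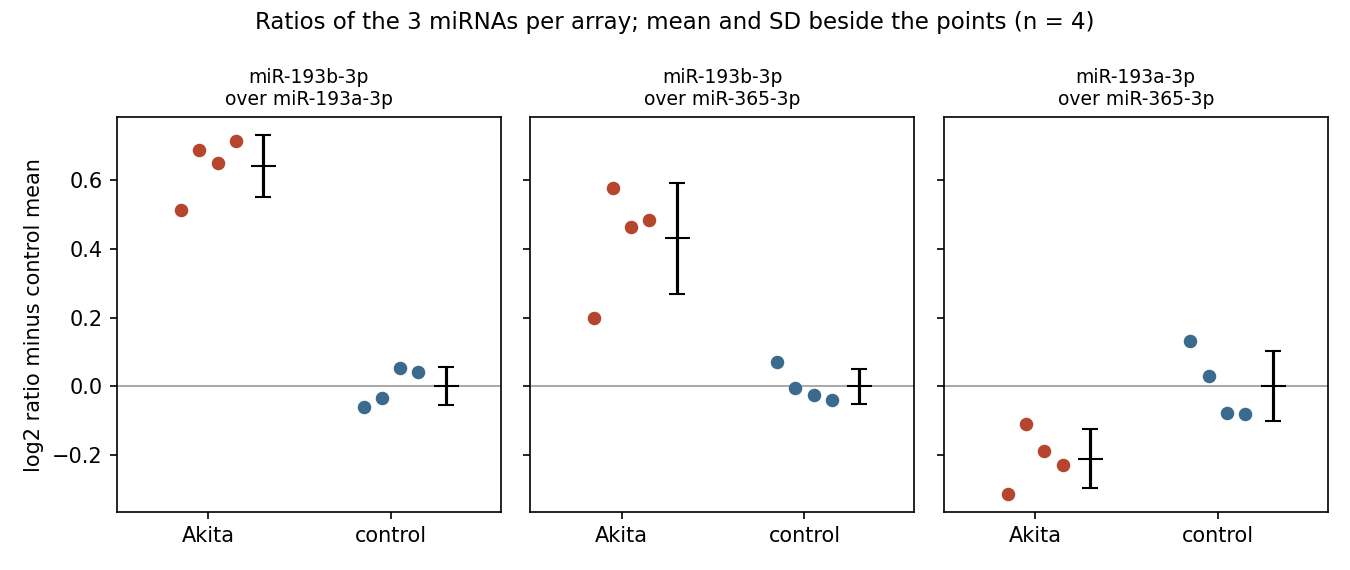
Log2 ratio of each pair of the 3 miRNAs on each array minus the mean of the control arrays, with Akita left of control and the mean and SD beside the points (n = 4 each). The ratio of the paralogs sits between 0.51 and 0.71 on the Akita arrays and between -0.06 and 0.05 on the control arrays.

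The 5p arms, the strands cut from the other side of the same hairpins, were not used to choose the 3 miRNAs. MiR-193a-5p was well above background on all 8 arrays, with levels of 5.38, 5.24, 5.30 and 5.47 in Akita replicates 1 to 4, against 5.10, 5.45, 5.44 and 5.18 in control replicates 1 to 4. That rests on a single probe, since another was above background on 5 arrays and the rest on 0. The summed linear signal was 37.7 to 44.2 in Akita and 34.3 to 43.6 in control, not far above the floor of 23.65. The groups overlapped, and the change of 0.06 (SE 0.10, 95% interval -0.17 to 0.28) did not pass the threshold (limma, adjusted p = 0.71), with a sign that depends on the scaling (-0.22 without scaling and -0.19 with spike-in scaling). With normexp it was 0.20 and passed (limma, adjusted p = 0.029, the lowest over its alternatives). MiR-193b-5p, miR-365-1-5p and miR-365-2-5p were well above background on 0 of 8 arrays. The arms of the miR-365 hairpins differ by U10C, G11A and A19C, going from miR-365-1-5p to miR-365-2-5p and counting from 1 at the 5′ end, so they would separate the loci, but not at the signal they had here.

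The sizes of the changes moved with the scaling, while their order was the same under each scaling tried. The median change of all tested miRNAs was 0.06 as reported, -0.21 without scaling, -0.18 with spike-in scaling and 0.16 with the 75th percentile over all probes. Relative to that median, miR-193b-3p was higher by 0.67, miR-365-3p by 0.24 and miR-193a-3p by 0.03 under each of these, as must be the case where each array is divided by 1 factor. With normexp, which is not bound in this way, they were higher by 0.29, higher by 0.14 and at -0.053 in the same order. Without scaling, the changes themselves were 0.46 for miR-193b-3p, 0.033 for miR-365-3p and -0.18 for miR-193a-3p, so the sign of miR-193a-3p turns. The deposited value table, normalized by the authors, gave 0.70, 0.27 and 0.06 in the same order of miRNAs. The differences between these changes were the reported ones (0.64 for miR-193b-3p minus miR-193a-3p in both), so for these miRNAs the order there adds no separate support. Raising the floor 4 times lifted it above every control value of miR-193b-3p, and the change was then 0.25, below that of miR-365-3p.

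**Figure D4:**
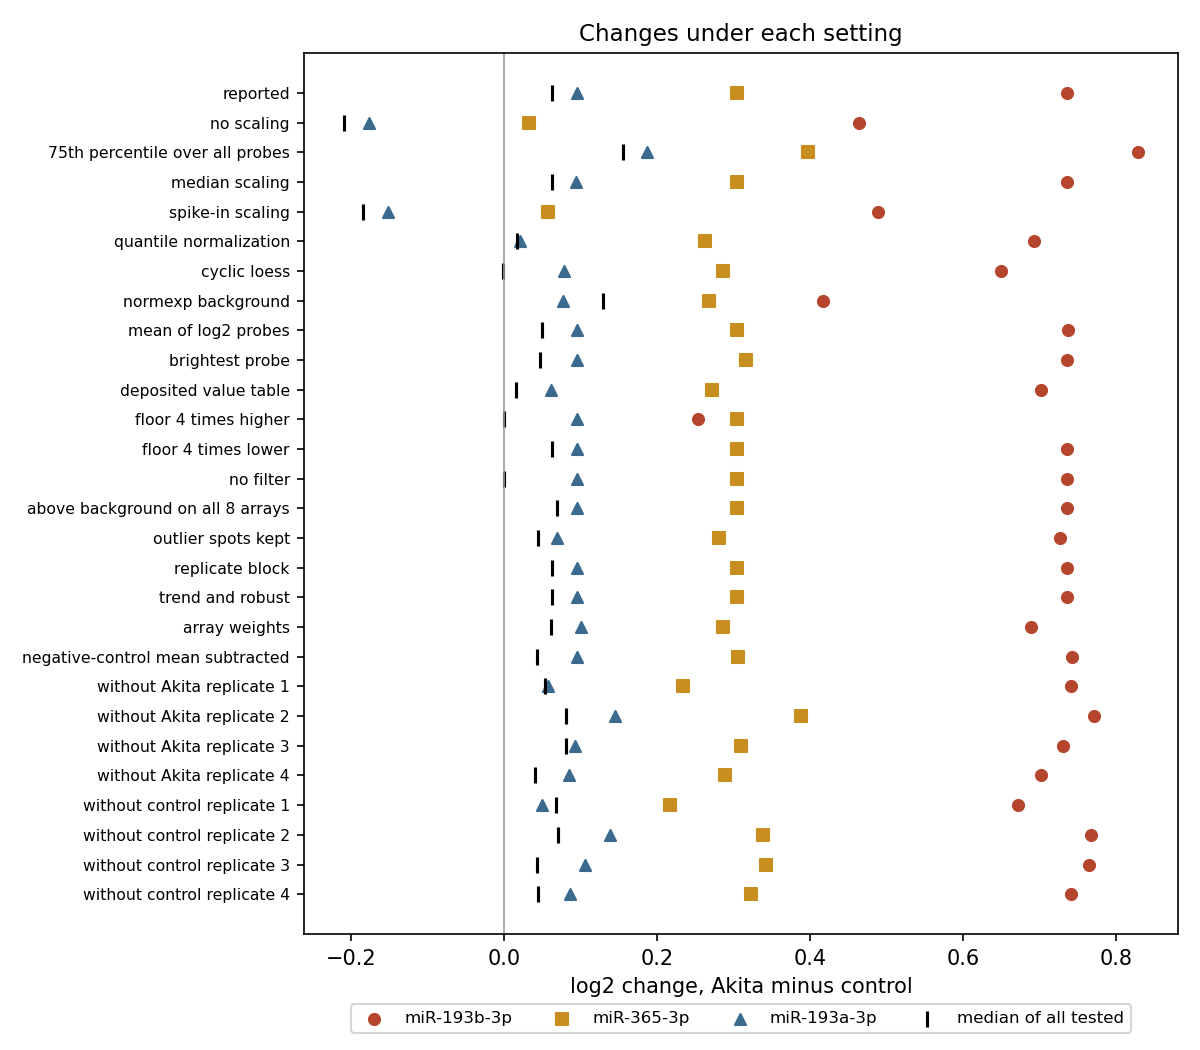
Log2 change, Akita minus control, of the 3 miRNAs and median change of all tested miRNAs (black ticks) under each way of processing the arrays, 1 setting per row. MiR-193b-3p is the highest of the 3 in every row except with the floor 4 times higher, and without scaling all of them move left with the median, to 0.46, 0.033 and -0.18.

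Across arrays, the deviations from the group means show which miRNAs varied together apart from the group difference. All correlations here are descriptions over 8 arrays that share their scaling. MiR-193a-3p and miR-365-3p had r = 0.93 (from 0.76 to 0.97 over the settings tried). MiR-193b-3p had r = 0.79 with miR-365-3p (0.40 to 0.91) and r = 0.78 with miR-193a-3p (0.43 to 0.96). The median r with the other 284 tested miRNAs was 0.27 for miR-193b-3p, 0.28 for miR-193a-3p and 0.13 for miR-365-3p. By r with miR-193b-3p, miR-365-3p ranked 35 and miR-193a-3p 41 among the other 284. By r with miR-365-3p, miR-193a-3p ranked 6 and miR-193b-3p 49. By r with miR-193a-3p, miR-365-3p ranked 9 and miR-193b-3p 61. Control replicate 1 was the lowest control array and Akita replicate 2 the lowest Akita array for each of the 3 miRNAs. The same held for other tested miRNAs, among them miR-34b-5p, miR-455-3p, miR-200c-3p and miR-139-5p, so it is not particular to the 3.

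The miRNAs most like each of the 3 were ranked by Pearson's r of the log2 levels over 8 arrays, where a shared group difference raises r. Those most like miR-193b-3p were miR-34b-5p (0.98), miR-34a-5p (0.98), miR-7671-3p (0.97), miR-200c-3p (0.96) and miR-139-5p (0.96). By deviations from the group means they were miR-455-3p (0.95), miR-7671-3p (0.92) and miR-192-3p (0.91), so 1 name stands in both rankings. For miR-365-3p the 5 were miR-30a-3p (0.94), miR-29b-3p (0.93), miR-374c-5p (0.93), miR-30e-3p (0.93) and miR-29c-5p (0.93), and by deviations miR-29c-5p (0.96), miR-10b-5p (0.95) and miR-10a-5p (0.95). For miR-193a-3p they were miR-29c-5p (0.97), miR-27b-3p (0.96), miR-22-3p (0.93), miR-98-5p (0.92) and miR-148b-3p (0.91), and by deviations miR-29c-5p (0.97), miR-378b (0.96) and miR-27b-3p (0.96). MiR-29c-5p was thus near the top for miR-193a-3p and miR-365-3p by both measures.

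Other miRNAs of brown fat were set beside the 3 in lists chosen with earlier results of these data known. Of 10 miRNAs that promote brown fat in mice, 9 were tested and 2 were called, both higher in Akita (8.42% of all tested were), with a median change of 0.06 over the 9, equal to that of all 285 tested. The called ones were both arms of miR-455, a brown fat activator, and neither was called without scaling (changes of 0.35 and 0.28) or with quantile normalization (0.58 and 0.53). MiR-455-3p had levels of 6.75, 6.50, 6.72 and 7.08 in Akita replicates 1 to 4, against 5.78, 6.26, 6.29 and 6.22 in control replicates 1 to 4, a change of 0.62 (SE 0.15, limma, adjusted p = 0.027) with no overlap. MiR-455-5p had levels of 5.46, 5.25, 5.21 and 5.63 in Akita, against 4.61, 5.02, 4.77 and 4.92 in control, and the means were 0.56 apart (SE 0.12). Its control levels lay near the floor, 4.56 in log2. Its change was 0.23 with the mean of log2 probes, 0 with the floor 4 times higher and 0.98 in the deposited value table. MiR-455-5p was well above background on 4 of 4 Akita and 2 of 4 control arrays and so entered the fit only through the Akita group, which is why its p is not given. With the filter on all 8 arrays, 1 miRNA of the list was called. The largest change among the 7 not called was -0.16 for miR-203-3p (limma, adjusted p = 0.32), which was -0.43 and called lower without scaling and -0.41 and called lower with spike-in scaling, followed by 0.12 for miR-30c-5p, and miR-182-5p was well above background on 0 of 8 arrays. The count of 2 did not hold without Akita replicate 1 (0 called), Akita replicate 3 (1 called) or Akita replicate 4 (1 called).

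Of 8 miRNAs that restrain brown fat, 6 were tested, 1 was called higher and 1 lower (8.42% and 6.32% of all tested were), with a median change of 0.08. MiR-34a-5p, a p53 target that blocks fat browning in mice, had levels of 11.55, 11.23, 11.37 and 11.58 in Akita, against 10.05, 10.25, 10.05 and 10.15 in control, and rose by 1.31 (SE 0.09, limma, adjusted p = 5.44e-05). MiR-155-5p, abundant in leukocytes, had levels of 5.52, 5.52, 5.52 and 5.46 in Akita, against 6.17, 6.15, 6.15 and 6.00 in control, a change of -0.61 (SE 0.06, limma, adjusted p = 0.00067). It was -0.045 with normexp and 0 with the floor 4 times higher, and was not called under either or with the percentile over all probes (-0.52). MiR-27a-3p, a restrainer of brown fat genes, changed by 0.09 (limma, adjusted p = 0.33), and miR-133a-3p and miR-133b-3p, which hold down the brown fat regulator Prdm16, were well above background on 0 of 8 arrays.

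**Figure D5:**
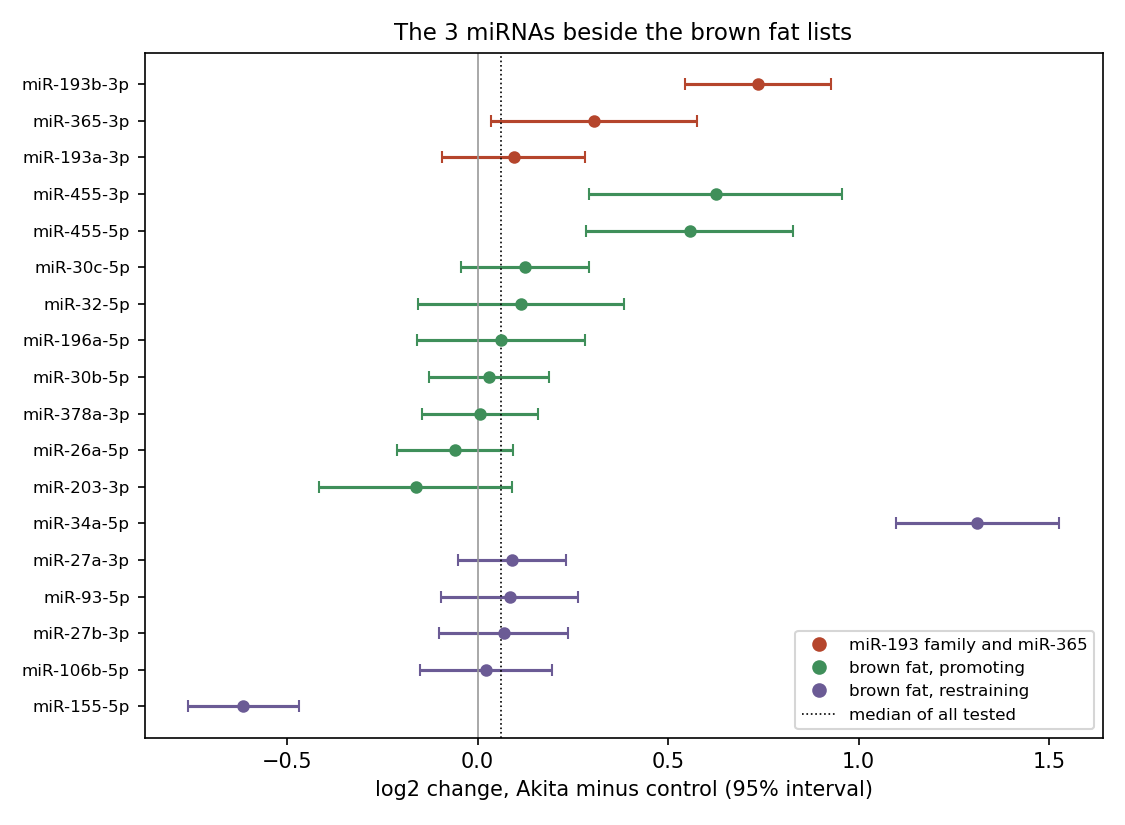
Log2 change, Akita minus control, with its 95% interval for the 3 miRNAs (red), the tested miRNAs that promote brown fat (green) and those that restrain it (purple), with a dotted line at the median of all tested. Within the promoting list the 2 arms of miR-455 stand at 0.62 and 0.56 and the other 7 between -0.16 and 0.12, and the restraining list runs from -0.61 to 1.31. The change of miR-455-5p, near the floor in control, was between 0 and 0.98 over the settings tried.

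Podocyte miRNAs were listed because of the link of miR-193a to podocytes. Of 8 of them, mostly the miR-30 family that keeps podocytes differentiated, 8 were tested and 0 were called by limma (14.7% of all tested were). The median change was 0.07, beside 0.06 over all tested miRNAs. An unadjusted p under 0.05 in limma was held by 2 of the 8. The share of all tested miRNAs under that unadjusted threshold was not counted, so nothing is read from the 2. The largest changes were 0.17 for miR-30d-5p (limma, adjusted p = 0.12), 0.16 for miR-30a-5p and 0.12 for miR-30c-5p, and all of these turn negative without scaling, which lowers every change alike. With no scaling, 3 of the 8 were called, all lower, where 104 of all 285 tested miRNAs were called lower. Nothing about podocytes is read from that count. MiR-30b-5p, miR-30c-5p and miR-26a-5p also stand in the brown fat promoting list, and miR-30a-5p in the list of tubular miRNAs below. The lists are thus not separate readings.

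Markers of other cell types moved with the groups in places. Of 5 leukocyte miRNAs 4 were called lower in Akita (6.32% of all tested were, and from 2 to 110 miRNAs over the settings tried), with a summed scaled signal of 687 to 828 in Akita and 1005 to 1160 in control. Of 5 adipose miRNAs, which all stand in the brown fat promoting list too, the 2 arms of miR-455 were called higher (8.42% of all tested were). One of these, miR-455-5p, entered the fit only through the Akita group, so its call is not counted as support. The summed signal of the 5 was 2149 to 2723 in Akita and 2240 to 2463 in control. Of 6 tested tubular miRNAs 0 were called by limma (1 had an unadjusted p under 0.05), with sums of 22718 to 26476 in Akita and 22156 to 25065 in control. Over all tested miRNAs 14.7% were called in either direction. The share of all tested with an unadjusted p under 0.05 was not counted, so nothing is read from unadjusted counts here. Both endothelial and both smooth muscle miRNAs were not called (0 of either had an unadjusted p under 0.05 in limma), with sums of 5040 to 6431 in Akita and 4725 to 5171 in control, and of 961 to 1198 in Akita and 1002 to 1214 in control. Of the erythrocyte miRNAs 1 was tested and not called, with a sum of 581 to 772 in Akita and 86.7 to 1204 in control, so that this signal varied widely between the control arrays. None of 4 skeletal muscle miRNAs was tested, and 3 of them were well above background on 0 of 8 arrays. The part of these cell types in the change of miR-193b-3p was not tested.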

How the data were processed

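Total RNA of 8 kidney samples (4 Akita, 4 control) was isolated with a miRNeasy kit, given a Cy3 label and run on Agilent miRNA arrays of 1 colour, per the labels' protocols. The deposited scanner files give each spot's intensity (linear). Per the file headers, Agilent Feature Extraction 12.0.3.1 made them, with a spatial surface subtracted as background and nothing normalized between arrays. The deposited value table gives, for each miRNA on each array, a linear ratio that the authors made by steps not given in the sources used here, so its centring and array factors stay unknown. Its column medians were 1.03, 1.11, 1.13 and 1.22 for Akita replicates 1 to 4 and 0.951, 0.950, 0.970 and 0.700 for control replicates 1 to 4. It was used as an alternative only.

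From the scanner files, control spots and outlier spots (2.03% to 3.02% of spots per array) were left out, processed signals were averaged per probe, scaled by the 75th percentile over 451 probes well above background on all arrays, summed per miRNA, floored at 23.65 and taken to log2. No spot was saturated (0). A miRNA was tested where every array of a group (4) had it above background, which held for 285 of 1881, with limma 3.58.1 in R 4.3.3 and Benjamini-Hochberg adjustment over the 285. The fit was tested on simulated data. The number of arrays limits the precision. MiR-193 and miR-365 values come from this whole-table fit.

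The 3 miRNAs and all lists were chosen with earlier results of these data known. MicroRNAs were named by a rule: the 3 miRNAs, their 5p arms, miRNAs of the same seed or within 50 kb, the called and up to 3 uncalled members of each brown fat or podocyte list, and the most correlated miRNAs. Cell type marker lists are given as counts and sums. Sequences came from RefSeq tables of GRCm38.p6 and from the annotation of the array (build mm9), whose coordinates are not printed. Other scalings, backgrounds, floors, filters, probe summaries, a replicate block, array weights and leaving out each array were tried, and subtraction of the negative-control mean was added after seeing the data. Replicate numbers were checked as pairs by the correlation of deviations from the group means, which was 0.10, -0.30, 0.34 and -0.35, so they were not used as pairs.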

Additional observations from a re-analysis of the deposited data

Results flagged for a closer look

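In 86 groups of 4 samples examined, 7 had one sample far from the other 3, with a gap to its nearest neighbour over 0.829 of the group's range; chance gives about 5% of groups. MiR-365-3p was 9.26 in control replicate 1, where the other control arrays had 9.58 to 9.63. In the same control array miR-455-3p was 5.78 (others 6.22 to 6.29), miR-374c-5p was 6.07 (others 6.21 to 6.24) and miR-10b-5p was 11.21 (others 11.37 to 11.40), all low. These miRNAs stand among those most correlated with miR-365-3p or miR-193b-3p, so a shared low array is partly built in by that choice. The 86 groups share their arrays and are not independent, so their flags were not tested against chance. MiR-203-3p was 7.37 in Akita replicate 2 (others 7.72 to 7.79). MiR-155-5p was 5.46 in Akita replicate 4 (others 5.52 each) and 6.00 in control replicate 4 (others 6.15 to 6.17). No result was raised for a difference between 2 effects, since the series has 1 contrast.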

How the results depend on the processing

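Under 27 alternatives, the change of miR-193b-3p was between 0.25 and 0.83. It moved to 0.46 without scaling, 0.49 with spike-in scaling, 0.42 with normexp and 0.25 with the floor 4 times higher, and leaving out 1 array gave 0.67 to 0.77. MiR-365-3p was 0.033 without scaling and 0.058 with spike-in scaling, and ranged from 0.22 to 0.39 without 1 array. MiR-193a-3p was -0.18 without scaling and -0.15 with spike-in scaling, and 0.05 to 0.15 without 1 array. The difference between the changes of miR-193b-3p and miR-193a-3p was 0.34 with normexp and 0.16 with the floor 4 times higher, and 0.62 to 0.68 without 1 array. That between miR-193b-3p and miR-365-3p was 0.15 with normexp and -0.052 with the raised floor, which lies above all control values of miR-193b-3p, and 0.38 to 0.51 without 1 array. That between miR-193a-3p and miR-365-3p was -0.24 to -0.17 without 1 array.

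The count of all calls, 42, became 109 without scaling, 117 with spike-in scaling, 14 with the 75th percentile over all probes, 70 with cyclic loess, 89 with normexp, 9 with the raised floor, 6 with no filter (all 1881 miRNAs tested), 76 with array weights and 25 with the replicate block. Without 1 array it was 20 to 40, with 20, 22 and 22 without Akita replicates 1, 3 and 4, and 27 and 23 without control replicates 2 and 3. The median change of all tested miRNAs was -0.21 without scaling and -0.18 with spike-in scaling, and 0.04 to 0.08 without 1 array. Calls higher in Akita ranged from 4 to 81 and lower ones from 2 to 110 over all settings.

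Calls in the brown fat promoting list (2) became 3 without scaling, 6 with spike-in scaling, 1 under each of quantile normalization, the mean of log2 probes and the filter on all 8 arrays, 0 with the raised floor or no filter, and 0 to 2 without 1 array. Calls in the restraining list (2) became 1 under normexp, the raised floor or the percentile over all probes, 3 without scaling and 5 with spike-in scaling. Podocyte calls (0) became 3 without scaling, with spike-in scaling and with quantile normalization, 1 with cyclic loess and 2 with array weights. These list counts take calls in either direction. Of all 285 tested, 109 were called without scaling (104 lower), 117 with spike-in scaling (110 lower) and 59 with quantile normalization. Nothing about the lists is read from the larger counts. The sign turned for miR-193a-5p (-0.22 without scaling, -0.19 with spike-in scaling, -0.016 with array weights, -0.033 with the negative-control mean subtracted and -0.0082 without control replicate 1, the lowest of -0.0082 to 0.11 without 1 array). It also turned without scaling and with spike-in scaling for miR-27a-3p (-0.18 and -0.16), miR-30c-5p (-0.15 and -0.12) and miR-30d-5p (-0.10 and -0.080). The cause was not tested.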
